A study of Mus musculus with 6 samples.

Results

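The genes described here encode the factors that start, extend and end protein synthesis in the cytosol, together with a few abundant growth-linked proteins. They were taken by symbol from the array annotation: the initiation factors (Eif1 to Eif6 families), the elongation factors (Eef1 and Eef2 families), the release factors Etf1 and Gspt1, and Fau, Naca, Btf3, Tpt1, Npm1, Nap1l1 and Pabpc1. Of 18193 genes with a probe set of their own, 67 matched, and 62 of these passed the filter on low values out of 10581 genes that did so in all. Expression was measured in mice of the Slc6a4 JD60 line, which carry a bacterial artificial chromosome transgene for translating ribosome affinity purification (TRAP) in serotonin neurons, on a mixed FVB and c57/bl6j background. In TRAP, tagged ribosomes of a chosen cell type are pulled out of a tissue lysate with the mRNA bound to them. The IP group holds 3 samples of this immunoprecipitated RNA. The unbound group holds 3 samples of the RNA left behind, each named for an IP replicate. All samples came from midbrain and brainstem without the cerebellum, from adult males and females of 6 to 12 weeks, 5 mice pooled per sample, so all groups share the transgene and 1 transgenic line stands for the cell type.

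Initiation begins when eIF2, carrying GTP and the initiator tRNA, joins the small ribosomal subunit, which eIF3 and the cap-binding complex eIF4F bring to the mRNA. eIF2 is recharged by its exchange factor eIF2B, and kinases that phosphorylate its alpha subunit block that step under stress. The eEF1 factors then deliver aminoacyl-tRNAs, eEF2 moves the ribosome along, and release factors end the chain. Many mRNAs for ribosomal proteins and some for translation factors begin with a C followed by a run of pyrimidines, the terminal oligopyrimidine (TOP) element, through which mTORC1 controls their translation.

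The start regions of several members illustrate such a run. The windows below are from RefSeq on GRCm38.p6, 5′ to 3′ with 15 bases before the annotated start and 15 from it on. Capitals mark a C followed only by C or T, at least 7 letters in all, that begins within 5 bases of the annotated start, on the gene's own strand. The first group holds runs in Fau and Eif3f, both higher in IP RNA below, in Eif2s3x and Eif2s3y, the X- and Y-linked pair, in Nap1l1 and in Eef1a1.
Fau, chr19:6057932-6057961, + strand: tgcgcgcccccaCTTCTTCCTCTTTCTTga
Eif3f, chr7:108934400-108934429, + strand: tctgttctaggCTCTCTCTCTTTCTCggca
Eif2s3x, chrX:94212637-94212666, − strand: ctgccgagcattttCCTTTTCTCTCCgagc
Eif2s3y, chrY:1010580-1010609, + strand: gcggaggccacagccaCTTCCTTCTTTCgt
Nap1l1, chr10:111473212-111473241, + strand: ggcgggctctcgggtCTTTTTTagcgccat
Eef1a1, chr9:78481710-78481739, − strand: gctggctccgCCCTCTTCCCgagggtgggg
The second group shows called members, Eif3a and Eif5b, lower in IP RNA, and Eif3k and Naca, higher, in which no such run lies at the annotated start.
Eif3a, chr19:60790679-60790708, − strand: cggggctcgggcggcggcgctgccgccgcg
Eif5b, chr1:37997995-37998024, + strand: ggcgcctgggttcccacctggccggcggct
Eif3k, chr7:28981874-28981903, − strand: aaaacaaccggcgctggtgctgaaagcgcc
Naca, chr10:128035331-128035360, + strand: gcaactcgttctcttaaagaggaaacccgg

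Of the 53 members with a RefSeq start region, 9 had such a run, a share of 17%, against 6.68% of all 27025 genes with one and 28.6% of 35 cytosolic ribosomal protein genes. Such a run was present in 2 of the 7 called higher, in 2 of the 8 called lower and in 5 of the 34 not called. The median log2 change, IP over unbound, was 0.18 for the 9 members with a run and 0.18 for the 40 tested members without one. The letters are a description of the annotated start only, which may differ from the start used in these cells.

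The arrays held 45101 probe sets. Over these without the 64 controls, Pearson's r of an IP array with another IP array was 0.996 to 0.999 and with an unbound array 0.924 to 0.932. Unbound arrays reached 0.994 to 0.997 among themselves. The labelled cell type was borne out by its markers: all 6 serotonin neuron genes were higher in IP RNA, with a median log2 change of 5.48, among them Slc6a4, the serotonin transporter, at 5.15. All 6 astrocyte genes (median −3.00), all 5 oligodendrocyte genes (−3.37), 4 of 5 tested microglia genes (Csf1r −3.79 and C1qb −3.15 among them) and all 7 tested genes of other transmitter types (−2.40, with 1 dim gene at its bound) were lower. The microglial gene Aif1 was the exception, at least 1.66-fold higher, since its unbound arrays were all under the detection limit of log2 5. Of 8 genes of neurons in general, 1 was called higher (Tubb3) and 2 lower (Nefm and Nefl), with a median of −0.49. Over all genes 10.4% were called higher and 41.1% lower. Mbp and Cnp, myelin genes, still had mean log2 values of 13.63 and 12.89 in IP RNA, against 15.30 and 14.73 in unbound RNA. The log2 of the markers' summed signal was 13.99 to 14.58 on IP arrays and 16.13 to 16.34 on unbound arrays for oligodendrocytes, and 11.24 to 11.43 on IP arrays and 14.04 to 14.61 on unbound arrays for astrocytes. It was 7.52 to 7.54 on IP arrays and 10.56 to 10.76 on unbound arrays for microglia. All 6 endothelial markers, 3 microglial (C1qa, Cx3cr1, Itgam) and 2 astrocyte markers (Aldh1l1, Slc1a3) were below the limit on every IP array. The part of glial RNA in the changes of the translation factors was not tested. Serotonin neurons against whole tissue and ribosome-bound against remaining RNA differ together here and cannot be told apart, nor can fewer cells of a type and less RNA per cell.

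Among the 62 tested members, 8 were higher and 9 were lower in IP than in unbound RNA, a call that asks for a 2-fold change or more and for an adjusted p below 0.05 (limma). Over all tested genes 10.4% were called higher and 41.1% lower. The members' share of higher calls, 12.9%, was thus close to the background, while their share of lower calls, 14.5%, was below it. The remaining 45 members were not called. The members' median log2 change was 0.23, against −0.65 over all genes tested (−0.58 with the 1596 genes below the detection limit in a group at their bound), a difference of 0.88, and 49 of the 62 lay above the all-gene median. With no minimum size, 27 members were higher (22.0% of all genes) and 18 were lower (56.9%) at an adjusted p under 0.05. In 30 members all 3 IP arrays lay above all 3 unbound arrays (23.9% of all genes), in 18 all lay below (59.1%), and in 14 the groups overlapped.

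The authors normalised the groups separately, so the zero point between them depends on how IP arrays are scaled, here by adding −0.23 from the biotinylated controls. With no scaling 12 members were called higher and 6 lower, with arrays centred on the median of all probe sets 41 and 1, and with quantile normalisation 10 and 2. Shifting IP arrays by −2.91, to the poly-A spike controls, turned every upward change of a member downward and left 0 members higher and 61 lower. A shift common to all genes of an array moves a member and the all-gene median alike, save that the genes passing the filter change somewhat. Members above that median numbered 48 without scaling and with either median centring, and 50 with the poly-A shift. Quantile normalisation can also move genes past one another. With it 41 members lay above the all-gene median, and the members' median was 0.33 above it. Changes are therefore also given relative to the all-gene median where the direction turns on it, and directions below hold for the biotin scaling.

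**Figure D1:**
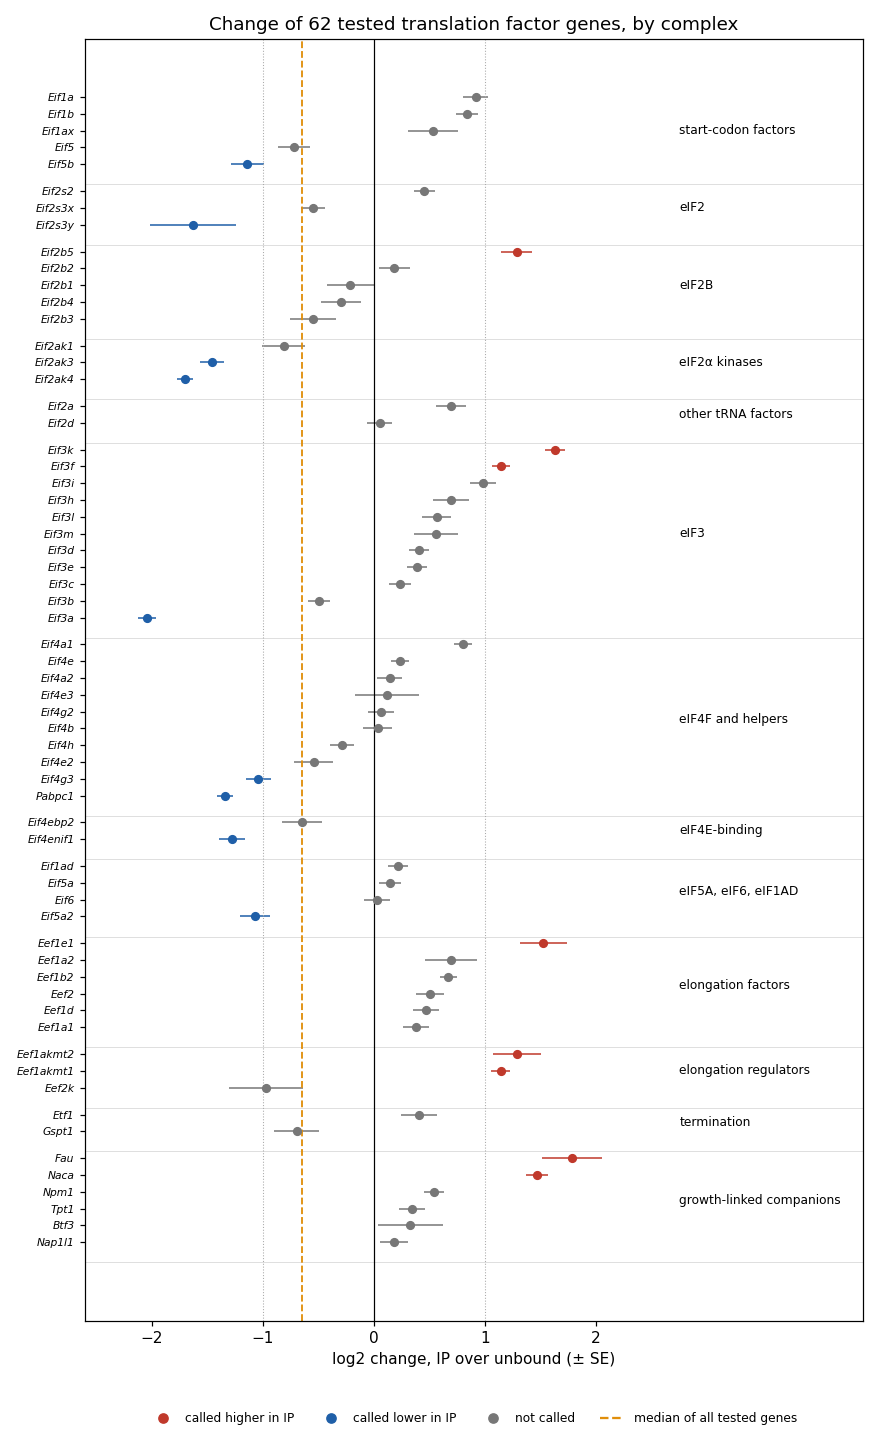
Log2 change, IP over unbound, of the 62 tested translation factor genes (points, with the standard error as bars), grouped by complex from start-codon factors at the top to growth-linked companions at the bottom. Red marks the 8 genes called higher in IP, blue the 9 called lower, and the dashed line the all-gene median of −0.65; under the poly-A scaling all points would lie left of 0.

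The factors that scan for the start codon divided. Eif5b, the GTPase that joins the large subunit, had log2 values of 8.06, 7.72 and 7.67 on the IP arrays, against 9.15, 8.77 and 8.95 on the unbound arrays. The groups did not overlap, and Eif5b fell by 1.14 on the log2 scale (SE 0.15, adjusted p = 0.000599, limma); it was not called at −0.91 with no scaling, at −0.12 and −0.39 with the median centrings or at −0.44 with quantile normalisation. Eif1a and Eif1b, which help the small subunit scan, had log2 changes of 0.92 and 0.84, without overlap of the groups (adjusted p = 0.000444 and 0.000339), short of 2-fold. Eif5, the activator of the eIF2 GTPase, had a change of −0.72, close to the all-gene median, and Eif1ax had 0.53 with overlapping groups (adjusted p = 0.0699). Of the 5 tested members of this list, 0 were called higher and 1 lower (20%), against 10.4% and 41.1% over all genes.

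eIF2 itself had 3 tested subunit genes. The beta subunit gene Eif2s2 averaged 12.66 in IP and 12.21 in unbound RNA (log2 change 0.45, adjusted p = 0.00498). The gamma subunit is encoded by a pair of genes in mice, Eif2s3x on the X chromosome and Eif2s3y on the Y chromosome. Eif2s3y had log2 values of 6.88, 6.58 and 6.88 on the IP arrays, against 8.44, 7.60 and 9.18 on the unbound arrays. Every IP array was below every unbound array, and the unbound arrays spread widely (SD 0.79, against 0.17 in IP). Its change was −1.63 (SE 0.39, adjusted p = 0.00865), 0.98 below the all-gene median. This value is from the only probe set of the gene that passed the filter. Averaging all of its probe sets, also those that failed the filter, gave 0.042, of the other sign and not called. With the median centrings and quantile normalisation the change was −0.61, −0.88 and −0.80, none called. The pooled mice were of both sexes in proportions that the labels do not give, and their part in the Eif2s3y values was not tested. Eif2s3x had 10.81, 10.69 and 10.69 in IP RNA, against 11.40, 11.08 and 11.35 in unbound RNA, a change of −0.55 (adjusted p = 0.00415), which lies 0.10 above the all-gene median and turned positive, to 0.47 and 0.20, with both median centrings.

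Among the eIF2B exchange factor genes, only Eif2b5 of the 5 tested was called (20% higher, against 10.4% over all genes). Eif2b5 encodes the catalytic epsilon subunit, and its log2 values were 10.07, 9.81 and 9.92 in IP RNA, against 8.85, 8.41 and 8.68 in unbound RNA. It rose by 1.28 (SE 0.14, adjusted p = 0.000233) without overlap. With all of its probe sets averaged, also those that failed the filter, it had 0.55, not called. The genes of the other subunits had changes of 0.18 (Eif2b2), −0.21 (Eif2b1), −0.29 (Eif2b4) and −0.55 (Eif2b3), all with overlapping groups. By their brightest probe sets, all 5 genes lay above the all-gene median, also under quantile normalisation. A dimmer probe set of Eif2b2 had −0.86, below that median, without overlap of the groups and not called. Another was below the limit on all IP arrays and at least 1.38-fold lower, not called.

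The eIF2 alpha kinases lay at the other end. Eif2ak4 (GCN2, which senses uncharged tRNA) had log2 values of 5.505, 5.59 and 5.498 in IP RNA, against 7.27, 7.24 and 7.19 in unbound RNA, and fell by 1.70 (SE 0.07, adjusted p = 4.27e-06). Eif2ak3 (PERK, the kinase of the endoplasmic reticulum) had 7.34, 7.45 and 7.33 in IP RNA, against 8.96, 8.65 and 8.88 in unbound RNA, and fell by 1.46 (SE 0.11, adjusted p = 3.84e-05). Neither gene's groups overlapped. Eif2ak1, the heme-regulated kinase, had a change of −0.81 (adjusted p = 0.00829), though a dimmer probe set of the gene gave 0.90. Eif2ak2, activated by double-stranded RNA, was below the detection limit on all arrays and was not tested. The 3 tested kinases lay below the all-gene median, also under quantile normalisation, but 0 of them were called there or under both median centrings. Eif2ak4 then had −0.68 and −0.96 with the centrings and −0.60 with quantile normalisation, and Eif2ak3 had −0.44, −0.71 and −0.71. Of the factors that carry initiator tRNA by other routes, Eif2a had a change of 0.70 and Eif2d of 0.05, and neither was called.

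The eIF3 genes, 11 of them tested, were mostly higher in IP RNA under the biotin scaling (all 11 were lower under the poly-A scaling), with Eif3a as a large exception. Eif3k, a peripheral subunit, had log2 values of 11.79, 11.57 and 11.74 in IP RNA, against 10.10, 9.98 and 10.14 in unbound RNA, and rose by 1.63 (SE 0.09, adjusted p = 1.44e-05). Eif3f had 14.04 on all IP arrays, against 12.90, 12.78 and 12.996 on the unbound arrays, and rose by 1.14 (SE 0.08, adjusted p = 3.84e-05). Identical values on all 3 arrays occurred in 15.8% of IP and 0.482% of unbound probe sets at a mean log2 value of 5 or more, so the IP spread of such a gene may be understated. The same may apply to genes such as Eif3a and Eif2s3y, whose IP values were equal on some arrays only. Under quantile normalisation the Eif3f change was 0.88 and not called.

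Eif3a, the scaffold subunit on which the complex assembles, had 8.78, 8.87 and 8.87 in IP RNA, against 10.84, 10.82 and 10.997 in unbound RNA. Every IP array lay far below every unbound array, and Eif3a fell by 2.04 (SE 0.08, adjusted p = 3.8e-06), more than any other tested member and to 1.39 below the all-gene median. Across the 6 scalings Eif3a was called lower each time, with a change between −4.72 and −1.02. The other subunits had smaller changes: Eif3i 0.99, Eif3h 0.70, Eif3l 0.57, Eif3m 0.56, Eif3d 0.41, Eif3e 0.39 and Eif3c 0.23, each without overlap, and Eif3b −0.49. In all, 10 of the 11 lay above the all-gene median (9 under quantile normalisation), 8 were higher at an adjusted p under 0.05 with no minimum size and 2 were lower. Over all genes the shares at that adjusted p were 22.0% higher and 56.9% lower. All IP arrays lay above all unbound arrays in 9 eIF3 genes (23.9% of all genes) and below in 2 (59.1%). The list's median change was 0.56.

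**Figure D2:**
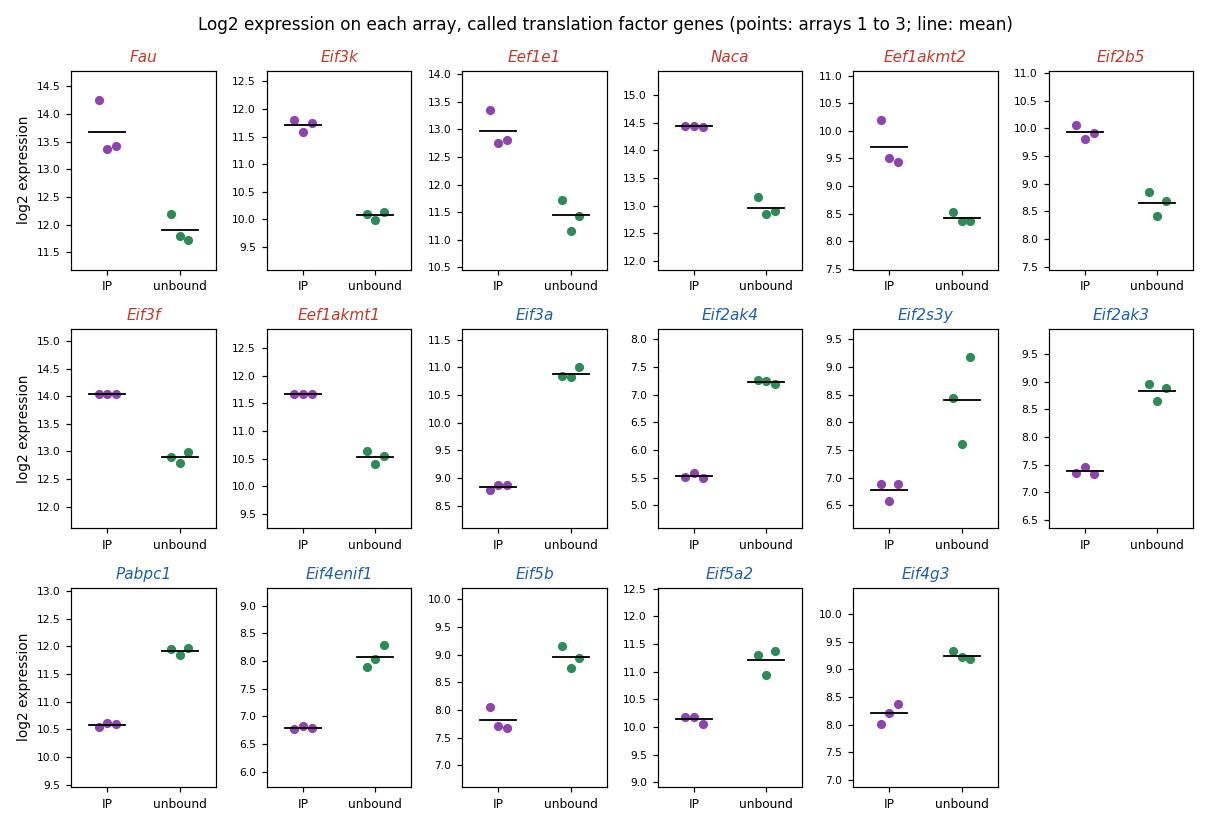
Log2 expression on each array for the 17 called members, IP arrays left (purple) and unbound arrays right (green), with the group mean as a line; each panel spans the same height on the log2 scale around its own centre. Genes with red names were higher in IP and those with blue names lower under the biotin scaling, and in none of the 17 do the groups overlap; under the poly-A scaling the 8 red genes would also lie lower in IP.

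The cap-binding complex and its helpers had 10 tested genes, with 0 called higher and 2 lower (20%). Over all genes 10.4% were called higher and 41.1% lower. Pabpc1, the poly(A)-binding protein that bridges the mRNA's ends through eIF4G, had log2 values of 10.54, 10.61 and 10.59 in IP RNA, against 11.95, 11.85 and 11.98 in unbound RNA. It fell by 1.34 (SE 0.08, adjusted p = 1.31e-05). With all of its probe sets averaged, also those that failed the filter, it fell by 0.76, short of 2-fold. Eif4g3, a scaffold of the complex, had 8.02, 8.21 and 8.37 in IP RNA, against 9.33, 9.22 and 9.18 in unbound RNA, and fell by 1.04 (SE 0.11, adjusted p = 0.000238). It was not called at −0.019 and −0.30 with the median centrings, −0.38 with quantile normalisation and −0.81 with no scaling, nor at −0.95 without IP replicate 1 and −0.998 without unbound replicate 1. The helicase genes had changes of 0.80 (Eif4a1, adjusted p = 0.000206) and 0.14 (Eif4a2, adjusted p = 0.302). The cap-binding protein gene Eif4e had 0.23 (adjusted p = 0.0341), its relatives Eif4e3 and Eif4e2 had 0.12 and −0.54, and the helicase cofactors Eif4b and Eif4h had 0.03 and −0.29. Eif4g2, an eIF4G relative that lacks the eIF4E-binding part, had 0.06.

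Proteins that bind eIF4E were represented by Eif4enif1, Eif4ebp2 and Eif4ebp1. Eif4enif1, which carries eIF4E into the nucleus, had log2 values of 6.76, 6.83 and 6.80 in IP RNA, against 7.90, 8.04 and 8.29 in unbound RNA, and fell by 1.28 (SE 0.12, adjusted p = 0.000105); it had −0.26 and −0.53 with the median centrings and −0.43 with quantile normalisation, not called. Eif4ebp2, a repressor of cap-dependent initiation, had a change of −0.65, close to the all-gene median. Eif4ebp1 was under the detection limit on all arrays. Of the factors with other roles, Eif5a2, a relative of the hypusinated factor Eif5a, had 10.18, 10.18 and 10.05 in IP RNA, against 11.30, 10.95 and 11.38 in unbound RNA, and fell by 1.07 (SE 0.13, adjusted p = 0.000434). It was not called at −0.050 and −0.33 with the median centrings, −0.79 with quantile normalisation and −0.84 with no scaling, nor at −0.99 without unbound replicate 3. Eif5a had 0.15, Eif6, which keeps the large subunit from joining early, had 0.03, and Eif1ad had 0.22, none called. Eif4a3 of the exon junction complex had no tested probe set of its own.

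By their brightest probe sets, all 6 tested genes of the elongation factor list were higher in IP RNA on every array than in unbound RNA on any, under the biotin scaling. Over all genes this share was 23.9%. Eef1a1, which delivers aminoacyl-tRNA in most tissues, had log2 values of 15.23, 15.01 and 15.12 in IP RNA, against 14.85, 14.55 and 14.82 in unbound RNA, a change of 0.38 (SE 0.11, adjusted p = 0.0223). Eef1a2, the form of mature neurons and muscle, had 13.27, 12.92 and 12.72 in IP RNA, against 12.14, 11.98 and 12.70 in unbound RNA, a change of 0.70 (SE 0.23, adjusted p = 0.0322). Here IP replicate 3 and unbound replicate 3 nearly met. Eef2, the translocase, had 13.12, 12.81 and 12.81 in IP RNA, against 12.29, 12.37 and 12.56 in unbound RNA, a change of 0.50 (adjusted p = 0.0102). The exchange factor genes Eef1b2 and Eef1d had 0.67 and 0.47. None of these 5 reached 2-fold. A dimmer probe set of Eef1d had −0.21, not called, with overlapping groups. The 6 changes of the brightest probe sets stayed above 0 without scaling, under both median centrings and under quantile normalisation. They fell below 0 with the poly-A shift.

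Eef1e1 was the one called gene of that list. Despite its name it encodes a scaffold protein of the multi-tRNA synthetase complex. Its log2 values were 13.35, 12.75 and 12.80 in IP RNA, against 11.71, 11.17 and 11.44 in unbound RNA, and it rose by 1.53 (SE 0.21, adjusted p = 0.000799). Both groups were highest in replicate 1. Among genes that modify the elongation factors, Eef1akmt2 and Eef1akmt1, lysine methyltransferases of eEF1A, rose by 1.29 (adjusted p = 0.00179) and 1.14 (adjusted p = 4.22e-05). Eef1akmt2 had 10.20, 9.51 and 9.44 in IP RNA, against 8.53, 8.37 and 8.38 in unbound RNA, and Eef1akmt1 had 11.67 on every IP array, against 10.63, 10.41 and 10.54 in unbound RNA. IP replicate 1 was the high one for Eef1akmt2, and with averaged probe sets Eef1akmt1 had 0.67 and was not called. Eef2k, the kinase that inhibits eEF2, had 6.93, 8.11 and 8.09 in IP RNA, against 8.53, 8.77 and 8.75 in unbound RNA, a change of −0.97 (SE 0.33, adjusted p = 0.0351), not called, with IP replicate 1 the low one. Eef2kmt was below the detection limit on all arrays and Eef1aknmt on all IP arrays, and neither was tested.

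Release was represented by Etf1, which reads the stop codon, and Gspt1, its GTPase partner. Etf1 averaged 9.16 in IP and 8.76 in unbound RNA, a change of 0.40 (adjusted p = 0.0591), and Gspt1 averaged 7.87 in IP and 8.56 in unbound RNA, a change of −0.70 (adjusted p = 0.0191). Neither was called by its brightest probe set. Dimmer probe sets gave −0.36 and −0.05 for Etf1. For Gspt1 they gave −0.88, −1.72 and −2.16, of which 2 were called lower, and its change with averaged probe sets was −1.07.

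The 6 growth-linked companions all had positive changes under the biotin scaling, and 2 were called (33.3% higher, against 10.4% over all genes). Fau, which encodes a ubiquitin-like protein fused to a small-subunit ribosomal protein, had log2 values of 14.25, 13.37 and 13.42 in IP RNA, against 12.19, 11.79 and 11.71 in unbound RNA. It rose by 1.78 (SE 0.27, adjusted p = 0.00118), more than any other member, and by 1.498 without IP replicate 1. Naca, the alpha subunit of the nascent polypeptide-associated complex, had 14.44, 14.44 and 14.43 in IP RNA, against 13.15, 12.84 and 12.90 in unbound RNA, and rose by 1.47 (SE 0.10, adjusted p = 3.07e-05). Its beta partner Btf3 had 12.73, 11.93 and 11.84 in IP RNA, against 12.22, 11.55 and 11.76 in unbound RNA, with overlapping groups and a change of 0.33 (adjusted p = 0.335). Npm1, a nucleolar chaperone, had 0.54 (adjusted p = 0.00196), Tpt1 had 0.34 (adjusted p = 0.0332) and the histone chaperone Nap1l1 had 0.18 (adjusted p = 0.236). Under quantile normalisation the Tpt1 change was −0.037.

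Several factors come as paired genes, and 8 such pairs had both genes tested. For each array the log2 difference within the pair was taken, which does not depend on a constant shift between groups, and it was compared between IP and unbound arrays by an exact two-sided permutation test. With 3 arrays against 3 the smallest p that this test can give is 0.1, so no pair could pass 0.05. The difference Eif5a2 minus Eif5a was −4.56, −4.39 and −4.52 on the IP arrays, against −3.29, −3.41 and −3.11 on the unbound arrays. It was thus 1.22 lower in IP RNA, without overlap (exact permutation p = 0.1, adjusted over the 8 pairs 0.16). The same p and no overlap were found for Eif2s3y minus Eif2s3x (−1.08), Eif4e2 minus Eif4e (−0.78), Eif4a2 minus Eif4a1 (−0.66) and Eif2ak4 minus Eif2ak3 (−0.24). Eef1a2 minus Eef1a1 differed by 0.32 (exact permutation p = 0.2), Eif1a minus Eif1ax by 0.39 (0.2) and Eif4e3 minus Eif4e by −0.12 (0.8), all with overlap. Taken by replicate number, a comparison added after the data were seen, IP minus unbound was above 0 in 3 of 3 numbers for Eif1a minus Eif1ax (0.71, 0.29 and 0.17) and below 0 in 3 of 3 for the 5 pairs without overlap. Each of these 6 had an exact sign-flip p of 0.25, the smallest that 3 numbers can give. For Eef1a2 minus Eef1a1 and Eif4e3 minus Eif4e it was above 0 in 2 of 3 (exact sign-flip p = 0.5 and 1). Under quantile normalisation, Eif2ak4 minus Eif2ak3 was 0.12 and Eif4e3 minus Eif4e was 0.22, so the sign of both pairs depends on the scaling. With all probe sets of each gene averaged, also those that failed the filter, Eif2s3y minus Eif2s3x was 0.50 and Eif4e3 minus Eif4e 0.063. Both were again of the other sign.

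Each gene above was read by its brightest probe set, and for 35 members more than 1 probe set was tested. In 20 of them all probe sets changed in the same direction and in 15 they did not. No gene had probe sets called in opposite directions. Eif3a was called lower by both of its probe sets that reached the limit in IP RNA, at −2.04 and −1.47. Another, at least 2.499-fold lower, was below the limit on all IP arrays. That one passed the filter through the unbound arrays alone, so it could only come out lower. Naca was called higher by both of its probe sets (1.47 and 1.82), and Eif5a2 lower by both (−1.07 and −1.06). The start-codon factor Eif1ax differed by probe set, with 0.53 for the brightest against −1.29 and −1.14 for the others, both called lower. Eif5 had −0.72, −0.37, −0.67 and 0.39 on 4 probe sets and was at least 3.63-fold lower on the fifth, which was below the limit on all IP arrays. For 5 uncalled genes (Eif5, Eif4h, Eif1ax, Gspt1 and Eif4ebp2) another probe set was called lower, and for Eif3i another was called higher, at 1.09. Those of Eif5 and Eif4h were below the limit on all IP arrays. They passed the filter through the unbound arrays alone, so they could only come out lower. Taken one by one, 11 of the 128 tested probe sets were called higher and 20 lower. Of the 128, 6 were below the limit on all IP arrays and could likewise only come out lower. Over all genes, 1748 of 16835 tested probe sets were called higher and 7233 lower. The transcript position of the probe sets was not analysed here, so whether those that differ lie on other transcript ends was not tested.

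**Figure D3:**
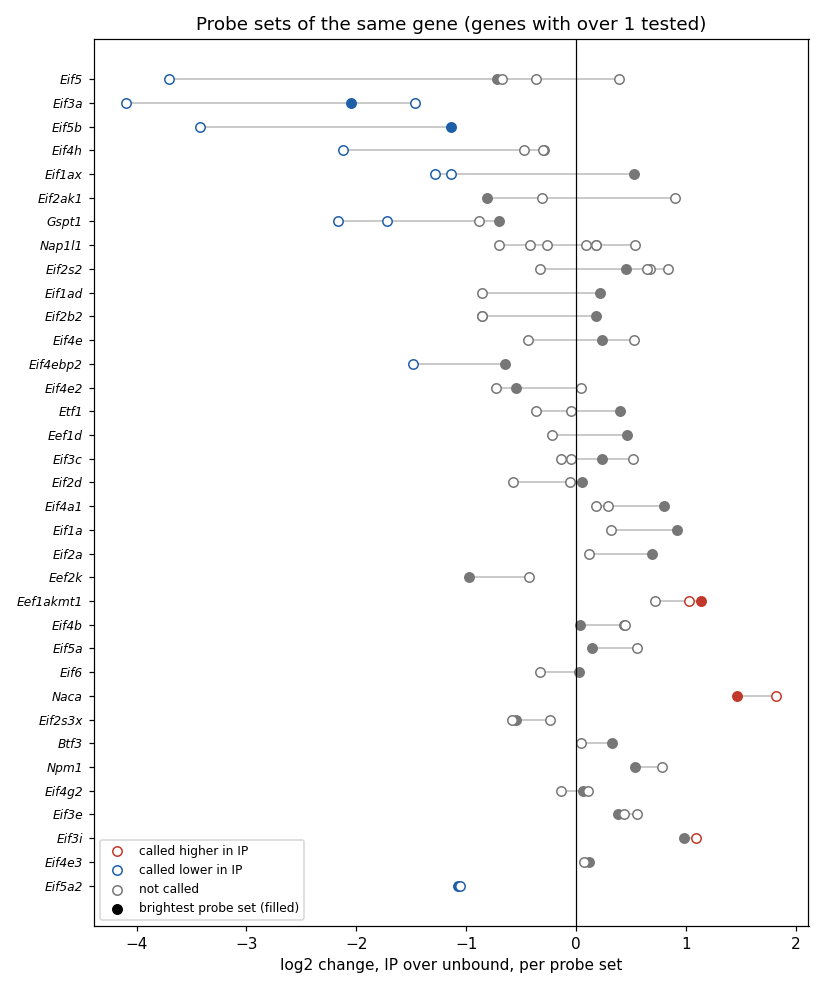
Log2 change, IP over unbound, for each tested probe set of the 35 members with more than 1, ordered by their fitted range; the filled circle is the brightest probe set, red and blue mark calls, and the horizontal axis is under the biotin scaling. Points of the 6 probe sets below the limit on all IP arrays are fitted values, not bounds; with these at their bound, 9 genes span more than 1 on the log2 scale, among them Eif1ax (1.82) and Eif2ak1 (1.72), neither of which has such a probe set.

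Change and level went together, for the members as for other genes. Across the 62 members Spearman's rank correlation between mean log2 expression and change was 0.53, and across all 10581 tested genes it was 0.37; these are correlations across genes of the same 6 arrays, which are not independent replicates. The 14 members with a mean log2 value of 7 to 9 had a median change of −0.76, against −0.72 for other genes of that range, and 5 were called lower. From 9 to 11 the median was 0.31 for 16 members, against −0.41 for other genes, and 14 lay above that of the other genes. From 11 to 13 it was 0.49 for 18 members, against −0.07, and at 13 or more 0.38 for 12 members, against 0.26. Members also differed in the length of their genes. The median genomic span in RefSeq was 11.9 kb for the 8 called higher (1.58 to 25.8), 42.2 kb for the 9 called lower (13.9 to 215) and 17.4 kb for the 45 not called. Other genes showed a like relation: Spearman's rank correlation between span and change was −0.48 across the 62 members and −0.33 across 10560 tested genes, again across genes of the same arrays. The part of level and span in the members' calls was not tested.

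**Figure D4:**
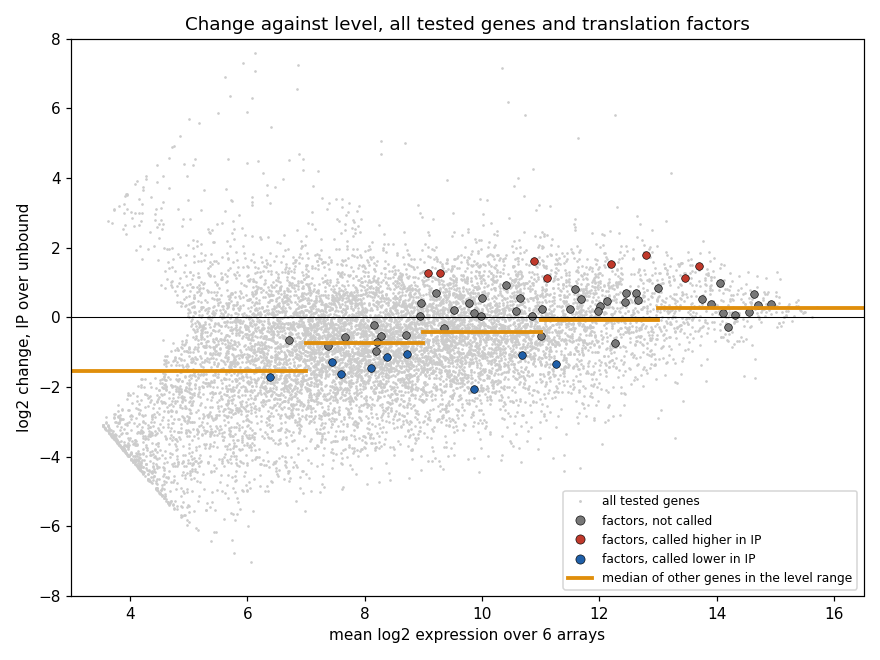
Log2 change, IP over unbound, against mean log2 expression over the 6 arrays for all 10581 tested genes (grey) and the 62 members (large points, red called higher, blue called lower, under the biotin scaling), with the median of the other genes in each level range as orange bars. Members between 9 and 13 lie mostly above the bars, while those between 7 and 9 are split evenly around them.

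Ribosomal proteins, the other part of the translation machinery, were set beside the factors. Over all genes 10.4% were called higher and 41.1% lower (22.0% and 56.9% at an adjusted p under 0.05 with no minimum size). Of 38 tested cytosolic ribosomal protein genes 15 were called higher and 0 lower (36 higher and 1 lower at an adjusted p under 0.05 with no minimum size), and their median change was 0.89. Of 76 mitochondrial ribosomal protein genes 33 were called higher and 0 lower (60 and 6 with no minimum size), with a median of 0.90. The translation factors, at 0.23, lay between these medians and the all-gene median of −0.65. Under the poly-A scaling both ribosomal lists turned, with 0 genes higher and 33 and 69 lower. Of the 15 tested members listed as TOP mRNAs, 3 were called higher (20%; Fau, Naca and Eif3f) and 1 lower (6.67%; Pabpc1), with a median of 0.47. The listing is not based on the start regions above: 10 listed genes had such a region, and 4 of these, not including Naca, had a run.

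Genes around the factors were called lower about as often as all genes, of which 41.1% were lower and 10.4% higher under the biotin scaling. In the mTORC1 and cap-signalling list 0 of 13 tested genes were called higher and 5 lower (38.5%), with a median of −0.74 (−0.71 with 2 dim genes at their bound). Among these, Mknk1 and Mknk2, kinases of eIF4E, fell by at least 3.44-fold and by 1.85 on the log2 scale, and Mlst8, a subunit of the mTOR complexes, fell by 2.00. In the eIF2 stress pathway 3 of 9 were called lower (33.3%) and 0 higher: Sesn2 (−2.02), Ppp1r15b, a regulator of the eIF2 alpha phosphatase (−1.84), and Dnajc3, an inhibitor of eIF2 kinases (−1.23). Atf4, the transcription factor made when eIF2 is phosphorylated, had −0.01. Of 15 other translation genes 3 were called higher and 5 lower (33.3%). Those called higher include Dhps (1.54) and Dohh (1.21), the enzymes that make hypusine on eIF5A, and those called lower include Larp4 (−1.89), which binds poly(A), and Gtpbp1, at least 2.09-fold lower. Of the mitochondrial translation factors 1 of 9 was called higher (11.1%) and 4 lower (44.4%), close to the shares over all genes, with a median of −0.99. Guf1 and Gfm2 were at least 3.16-fold and 2.08-fold lower, being below the detection limit on all IP arrays, Gfm1, an elongation factor, fell by 1.32, and Mtif3 rose by 1.03. Many of these lower calls turn on the scaling: with centring on all probe sets the changes were −0.21 (Dnajc3), −0.82 (Ppp1r15b), −0.99 (Sesn2), −0.83 (Mknk2), −0.98 (Mlst8), −0.87 (Larp4) and −0.29 (Gfm1), none called, while Gtpbp1 had −0.19 with quantile normalisation and Dnajc3 −0.996 with no scaling.

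**Figure D5:**
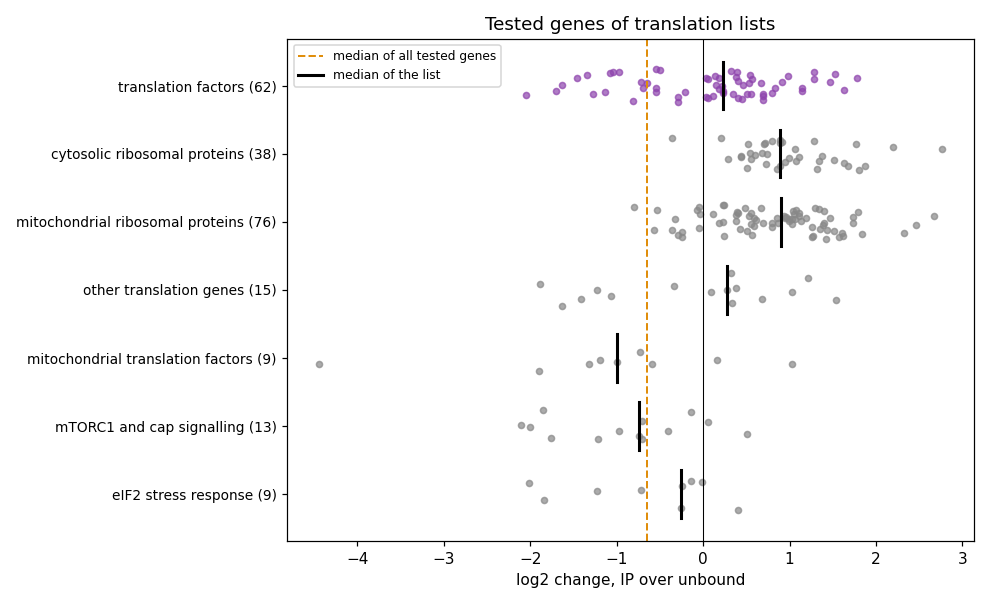
Log2 change, IP over unbound, of each tested gene in 7 lists under the biotin scaling, translation factors at the top (purple), with the median of each list as a black bar and the all-gene median as a dashed line. The bars of the cytosolic and mitochondrial ribosomal proteins lie at 0.89 and 0.90, that of the translation factors at 0.23, and that of the mitochondrial translation factors at −0.99; under the poly-A scaling the ribosomal and translation factor bars lie below 0.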

How the data were processed

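RNA from 3 IP and 3 unbound samples, 20 ng of total RNA each, was amplified in 2 cycles and hybridised to Affymetrix arrays (from the labels). GCRMA, of a version not stated, was run by the authors on each group by itself and gave the deposited log2 values, per the submitters' processing notes and the series' design text. The log2 scale shows in their floors of 2.22 (IP) and 2.17 (unbound). Array medians were 2.43 in IP and 3.21 to 3.24 in unbound RNA before scaling.

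As the design text advises, IP values were brought to the unbound level of 18 biotinylated controls (−0.23 added). Of the probe sets, 34945 had 1 symbol and were used, 932 had several, 9160 had none and 64 were controls. Probe sets that name a factor beside another gene (8, among them those of Eef1g and Eif3j1) were not used. Each gene was read by its brightest probe set and tested where at least 3 of 6 arrays reached log2 5, the detection limit. Groups were compared in limma 3.58.1 (R 4.3.3; tables in Python 3.11.15) by lmFit and eBayes, two-sided, Benjamini-Hochberg adjusted over 10581 genes. A call needs an adjusted p under 0.05 and a change of 2-fold or more. Where a fold is written with "at least", dim arrays count at the limit. The fit was tested on simulated data.

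Unbound labels name an IP replicate, so the numbers pair the samples. Same-numbered deviations correlated at 0.27, 0.16 and 0.10. Differently numbered ones correlated at −0.25 to 0.21, the highest being IP replicate 3 with unbound replicate 2. The number of arrays limits precision, and p-values measure the spread between these pooled samples.

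The members, the lists and the tests were chosen with earlier results of these data known. Genes named are the elongation factors Eef1a1, Eef1a2 and Eef2, the paralog pairs, the companions, up to 3 called genes per direction and list, the 2 brightest where none was called, and members not tested; other members are given to complete a list, after their values were seen. Alternatives were other scalings, filters and probe-set rules, a replicate block, and leaving out each replicate. Averaged probe sets are the mean over all probe sets of a gene, including those that failed the filter by themselves.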

Additional observations from a re-analysis of the deposited data

How the results depend on the processing

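The scaling between the groups sets most counts, as the groups were normalised separately. The number called higher and lower over all genes was 1104 and 4354 as reported, 3563 and 2067 with arrays centred on the median of all probe sets, 2737 and 2586 with centring on expressed probe sets, 2514 and 2473 with quantile normalisation, 35 and 9992 with the poly-A shift, and 1748 and 7233 with every probe set tested by itself. The share of calls that were lower was 79.8% as reported, 71.4% without scaling, 36.7% and 48.6% with the median centrings, 49.6% with quantile normalisation and 99.7% with the poly-A shift. All-gene medians were −0.65, −0.41, 0.44, 0.14, 0.04 and −3.37 in that order.

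For the translation factors, 41 higher and 1 lower were called with centring on all probe sets, 29 and 1 with centring on expressed probe sets, 2 lower with quantile normalisation, 0 and 61 with the poly-A shift, and 20 lower probe sets when each was tested by itself. The complexes holding a called member numbered 5 for higher and 7 for lower as reported, 11 and 1 with centring on all probe sets, 10 and 1 on expressed probe sets, 8 and 2 with quantile normalisation, and 0 and 13 with the poly-A shift. Of the 8 members called higher, all kept their call in every alternative but 4: none did with the poly-A shift, 7 with quantile normalisation, 6 with averaged probe sets (not Eif2b5, 0.55, and Eef1akmt1, 0.67) and 6 when genes with identical values were left out, which removes Eif3f and Eef1akmt1 by construction. Of the 9 called lower, 6 kept it without scaling, 1 (Eif3a) with either median centring, 2 (Eif3a and Pabpc1) with quantile normalisation and 4 with averaged probe sets, which took Eif2ak3, Eif2ak4 and Eif4g3 below the filter.

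The members' median change was −2.45 with the poly-A shift, 1.25 and 0.97 with the median centrings, 0.46 without scaling, 0.37 with quantile normalisation, 0.10 with averaged probe sets and 0.056 with every probe set. Relative to all genes it was 0.88 as reported, 0.81 with centring on all probe sets, 0.78 with a limit of log2 7, 0.77 with every probe set, 0.69 without genes of identical values, 0.65 with averaged probe sets, 0.44 with no filter and 0.33 with quantile normalisation. Cytosolic ribosomal proteins called higher numbered 23 without scaling, 37 and 36 with the median centrings, 40 probe sets one by one and 0 with the poly-A shift, and those lower 33 with that shift, 2 probe sets one by one, 1 with no filter and 1 without probe sets that end in _x or _s. Mitochondrial ones called higher were 64 and 58 with the median centrings and 0 with the poly-A shift, and those lower 69 with that shift, 5 probe sets one by one and 1 with averaged probe sets.

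Within gene pairs, averaged probe sets gave −0.29 for Eif4a2 minus Eif4a1, −0.38 for Eif4e2 minus Eif4e, 0.063 for Eif4e3 minus Eif4e, 1.25 for Eif1a minus Eif1ax, 0.50 for Eif2s3y minus Eif2s3x and −1.42 for Eif5a2 minus Eif5a. Quantile normalisation gave 0.60 for Eef1a2 minus Eef1a1, −1.12 for Eif4a2 minus Eif4a1, −0.16 for Eif4e2 minus Eif4e, 0.22 for Eif4e3 minus Eif4e, −0.47 for Eif2s3y minus Eif2s3x, −0.55 for Eif5a2 minus Eif5a and 0.12 for Eif2ak4 minus Eif2ak3. Probe sets tested by themselves give no value per gene or pair.

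Single genes changed sign as follows. With the poly-A shift the changes were Btf3 −2.35, Dhps −1.14, Eef1a1 −2.30, Eef1a2 −1.98, Eef1akmt1 −1.53, Eef1akmt2 −1.39, Eef1e1 −1.15, Eef2 −2.17, Eif1a −1.76, Eif1ax −2.15, Eif2a −1.98, Eif2b5 −1.39, Eif2d −2.63, Eif3f −1.53, Eif3k −1.05, Eif4a1 −1.87, Eif4a2 −2.54, Eif4e −2.44, Eif4e3 −2.56, Eif5a −2.53, Etf1 −2.27, Fau −0.89, Naca −1.21, Nap1l1 −2.50, Npm1 −2.14 and Tpt1 −2.33. With centring on all probe sets they were Eif2s3x 0.47, Eif4e2 0.48 and Gspt1 0.33, and with centring on expressed probe sets Eif2s3x 0.20, Eif4e2 0.20 and Gspt1 0.049. Averaged probe sets gave Btf3 −0.056, Eif1ax −0.63, Eif2d −0.50, Eif2s3y 0.042 and Nap1l1 −0.056. Quantile normalisation gave Eif4a2 −0.20, Eif4e2 0.18, Eif5a −0.23, Gspt1 0.043 and Tpt1 −0.037. Eif4e3 was −0.047 without IP replicate 2 and −0.041 without IP replicate 3, and Eif2d was −0.030 without unbound replicate 1. The cause of these changes was not tested.

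Leaving out 1 replicate at a time gave 8 to 9 members higher and 8 to 10 lower, 1090 to 1127 and 4247 to 4405 over all genes, complexes with a higher member 5 in each case and with a lower member 6 to 8, and member medians of 0.19 to 0.29 (0.85 to 0.93 relative to all genes). Ribosomal proteins called higher were 14 to 17 cytosolic and 30 to 35 mitochondrial, with 0 lower. Pair differences ranged from 0.20 to 0.49 (Eef1a2 minus Eef1a1), 0.17 to 0.54 (Eif1a minus Eif1ax), −0.29 to −0.15 (Eif2ak4 minus Eif2ak3), −1.38 to −0.73 (Eif2s3y minus Eif2s3x), −0.78 to −0.56 (Eif4a2 minus Eif4a1), −0.92 to −0.65 (Eif4e2 minus Eif4e), −0.25 to 0.16 (Eif4e3 minus Eif4e) and −1.29 to −1.14 (Eif5a2 minus Eif5a). With the replicate block 8 members were called higher and 9 lower, 1108 and 4360 over all genes, and no member's call changed. For the gene pairs the replicate block was an exact sign-flip test by number, added after the data were seen; it leaves each mean difference as reported and reached no p below 0.25. A limit of log2 7, no filter, and eBayes with trend and robust also kept all 17 calls. Genes near the detection limit are the least certain, since a value there bounds the change.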
